A study of Homo sapiens with 12 samples.

Results

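The T-cell leukaemia transcription factor circuit was followed through the mRNA levels of 10 genes: TAL1, GATA3, RUNX1, MYB, LMO2, TCF3, TCF12, ETS1, IKZF1 and BCL11B. They were looked up by NCBI gene ID among the 5759 genes of the authors' deposited table of comparisons. GATA3, IKZF1 and BCL11B had a row, and the other 7 are not analysed here. A threshold was set at an FDR (false discovery rate) under 0.05 together with a log2 fold change of 1 or more in size, and 5757 of the 5759 genes were past it somewhere. The 3 genes described below were therefore among genes listed for having changed, and they do not stand for the circuit as a whole.

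RNA was sequenced from MOLT4, an established human T lymphoblast line from an acute lymphoblastic leukaemia, labelled WT. There were 4 groups of 3 samples. One received the vehicle DMSO and was collected at 6 h, a pair of groups received 0.1 µM of compound 955 and were collected at 1 h and at 6 h, and the last received 1 µM of SNS-032 (6 h). SNS-032 inhibits cyclin-dependent kinases that drive transcription, CDK9 included, and 955 joins SNS-032 as its target-binding part to piperlongumine, so the comparisons ask how the conjugate acts beside its parent inhibitor. The doses of the compounds differ and all samples come from 1 cell line. No vehicle group was collected at 1 h, so at that time treatment and time in culture cannot be told apart. In such bulk RNA, fewer cells of a type and less RNA per cell cannot be told apart either. The labels do not say that the 3 samples of a group were separate cultures, so p-values measure the spread between these samples, which may be technical. Values of single samples are not used here and the depth of each sample is unknown. Of 16 T cell markers, 7 had a row, with average levels in the authors' deposited table from 4.75 (CD2) to 10.1 log2 CPM (ZAP70, a kinase of the T-cell receptor).

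In T-cell acute lymphoblastic leukaemia, the basic helix-loop-helix factor TAL1 pairs with the E proteins TCF3 and TCF12 and is held by LMO2 in complexes that also contain GATA3, RUNX1 and MYB. These factors bind shared enhancers, including enhancers of their own genes, and are known for keeping each other's expression high. GATA3 is a zinc finger factor needed at several steps of T cell development. IKZF1 encodes Ikaros, a zinc finger regulator of lymphoid genes and a tumour suppressor in lymphoid leukaemia. BCL11B is a zinc finger factor needed for commitment to the T lineage.

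The 3 genes are shown with the 250 bases before a RefSeq start site (GRCh38.p14), because circuit factors are known to bind at their loci. The data give RNA levels of these genes, and the activity of the windows was not measured. Capitals mark every match, on either strand, to the letters CANNTG (the E-box read by TAL1 with its E proteins), GATAA (GATA factors), TGTGGT (RUNX), CGGAAG (ETS) or AACNG (MYB).
GATA3, chr10:8054438-8054687, plus strand: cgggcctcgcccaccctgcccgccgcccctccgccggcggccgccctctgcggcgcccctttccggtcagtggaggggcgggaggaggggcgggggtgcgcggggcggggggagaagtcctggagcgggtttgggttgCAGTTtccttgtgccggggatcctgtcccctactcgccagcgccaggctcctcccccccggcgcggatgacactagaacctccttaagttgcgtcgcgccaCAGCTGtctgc
IKZF1, chr7:50304466-50304715, plus strand: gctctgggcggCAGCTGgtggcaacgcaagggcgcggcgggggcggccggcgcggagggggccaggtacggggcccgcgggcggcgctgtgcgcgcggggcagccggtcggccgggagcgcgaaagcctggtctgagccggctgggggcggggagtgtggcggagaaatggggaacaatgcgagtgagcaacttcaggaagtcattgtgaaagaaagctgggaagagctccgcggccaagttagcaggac
BCL11B, chr14:99272198-99272447, minus strand: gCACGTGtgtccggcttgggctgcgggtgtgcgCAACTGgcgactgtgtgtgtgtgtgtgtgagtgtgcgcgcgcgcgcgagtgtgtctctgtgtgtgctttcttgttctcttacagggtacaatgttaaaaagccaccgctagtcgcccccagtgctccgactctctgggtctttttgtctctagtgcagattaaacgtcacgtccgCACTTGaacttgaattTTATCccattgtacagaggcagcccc

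The GATA3 and IKZF1 windows each held 1 E-box with the letters CAGCTG, starting 11 bases before the start site in GATA3 and 239 bases before it in IKZF1. The BCL11B window held 3 E-boxes, of which CAACTG overlapped the window's only match to the MYB letters, and 1 match to the GATA letters, 26 bases before the start. GATA3 had 1 match to the MYB letters. Across 35116 RefSeq windows of this length, 61.8% held CANNTG, 20.4% GATAA, 10.98% TGTGGT, 16.5% CGGAAG and 70.6% AACNG, so the E-box and MYB matches are common ones. The windows of GATA3 and IKZF1 were rich in G and C (73.6% and 71.2% of bases), and that of BCL11B had 54.8%, which was above 41.7% of all windows. RefSeq lists 6 windows for GATA3 and 3 for IKZF1, and the one printed has the most GENCODE transcript starts within 150 bases (3 and 12). The single BCL11B window had 0 such starts, since the GENCODE models of that gene begin further downstream. A match is a run of letters and not a measured binding site.

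The genes differ in size. In RefSeq, GATA3 (gene ID 2625) spans 29866 bp of chromosome 10 (8045333 to 8075198). IKZF1 (10320) spans 101647 bp of chromosome 7 (50303455 to 50405101) and BCL11B (64919) spans 102911 bp of chromosome 14 (99169287 to 99272197). The spans of IKZF1 and BCL11B were longer than those of 87.8% and 88.1% of the table's genes, and that of GATA3 was longer than 59.8%. GENCODE lists 5 protein-coding transcripts for GATA3, 18 for IKZF1 and 3 for BCL11B, and the deposited values are per gene, so isoforms of Ikaros were not separated. Each gene overlaps an RNA gene on the opposite strand (GATA3-AS1, AC124014.1 and AL109767.1), GATA3 overlaps AL390294.1 on its own strand as well, and the use of strand in counting is not given in the sources used here, so reads from such partners could not be told apart.

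All 3 genes were well expressed. The levels that the authors' deposited table averages across the 12 samples were 6.01 log2 CPM for GATA3, 7.65 for IKZF1 and 8.29 for BCL11B, above those of 81.2%, 94.6% and 96.5% of the listed genes. Per kilobase of exon the average level was 4.23 log2 CPM per kb for GATA3, 4.20 for IKZF1 and 5.32 for BCL11B. BCL11B was thus the most abundant of them per length, and the levels of GATA3 and IKZF1 lay close together. These averages mix treated and control samples.

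GATA3 was lower than in DMSO in each treated group. In the authors' deposited table its log2 fold change was -1.38 after 1 h of 955, with an FDR of 0.0362. The authors' deposited table gave -1.49 after 6 h of 955, with an FDR of 0.00421. For SNS-032 the authors' deposited table gave -1.40, with an FDR of 0.00575. GATA3 mRNA thus stood at 38.5%, 35.7% and 37.8% of its DMSO level, and the values lay within 1 standard error of each other. The implied standard error of each value was between 0.31 and 0.32, and the 95% intervals at 1 h ran from -2.08 to -0.68, after 6 h of 955 from -2.19 to -0.78, and with SNS-032 from -2.11 to -0.70. GATA3 was the least precisely measured of the 3. It had 9.88 denominator degrees of freedom, against a median of 23.3 over the table, and 187 genes had fewer.

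IKZF1 had negative values too, smaller and better determined than those of GATA3. The authors' deposited table gave a log2 fold change of -0.63 for 955 at 1 h, with an FDR of 0.00298, which lies under the bound on fold change. It fell to -1.22 after 6 h of 955, where the authors' deposited table has an FDR of 3.53e-08. For SNS-032 the authors' deposited table gave -0.99 with an FDR of 8.41e-07, just inside the bound of 1 and so not past the threshold. These values correspond to 64.5%, 42.8% and 50.5% of the DMSO level. Their implied standard errors were all 0.13, with between 5.75% and 6.58% of the listed genes below them, and none of the 95% intervals (-0.89 to -0.37, -1.49 to -0.96 and -1.25 to -0.72) reached 0.

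BCL11B went the other way at 6 h. In the authors' deposited table its log2 fold change after 1 h of 955 was -0.49 with an FDR of 0.0825, which did not pass the threshold. It rose to 1.45 after 6 h of 955, where the authors' deposited table has an FDR of 2.55e-07, but stood at -0.62 when the mRNAs encoded by mitochondria were set to 0. For SNS-032 the authors' deposited table gave a rise to 1.57 with an FDR of 7.56e-08, against -0.77 on the mitochondrial scale. On the authors' scale BCL11B mRNA was at 71.0% of its DMSO level at 1 h, 273% after 6 h of 955 and 298% with SNS-032. Its implied standard errors were between 0.15 and 0.16, and the 95% intervals at 6 h were 1.12 to 1.77 for 955 and 1.25 to 1.90 for SNS-032.

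**Figure D1:**
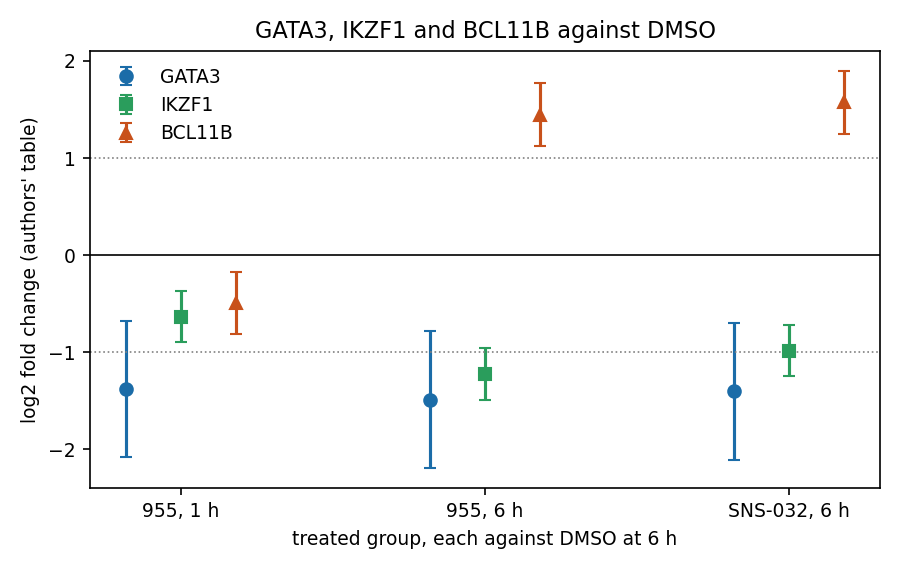
Points are the log2 fold changes of GATA3, IKZF1 and BCL11B in 3 treated groups, each against DMSO at 6 h (authors' scaling), bars are 95% intervals from the implied standard errors, and dotted lines mark the bound of 1 in either direction. GATA3 lies between -1.38 and -1.49, IKZF1 between -0.63 and -1.22, and BCL11B at -0.49 after 1 h and above 1 at 6 h, where it is below 0 if mitochondrial mRNAs are set to 0.

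Counted against the threshold, 1 of the 3 genes was lower at 1 h (GATA3), where 7.71% of all listed genes were lower and 0.729% higher. After 6 h of 955, 2 of the 3 were lower and 1 higher, beside 50.1% lower and 35.2% higher among all listed genes. With SNS-032, 1 was lower (GATA3) and 1 higher (BCL11B), beside 52.5% and 37.8%. The table holds genes chosen for having changed, so nothing is read from these counts. At 1 h, 2 of the 3 genes were lower when no bound on the fold change was set, beside 11.9% of all listed genes, and 0 were lower at an FDR under 0.01 with the bound, beside 5.64%. GATA3 passed the threshold in all 3 comparisons, which share the same DMSO samples.

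The place of each gene among the listed genes gives its size in context. At 1 h, 4.39% of the listed genes had a lower log2 fold change than GATA3, 19.6% lower than IKZF1 and 24.8% lower than BCL11B. GATA3 was number 254 from the bottom of the 5759 genes at this time. After 6 h of 955 these shares were 29.4% for GATA3, 40.6% for IKZF1 and 76.8% for BCL11B, and with SNS-032 they were 36.2%, 53.3% and 78.3%. GATA3 was thus among the deeper falls of the table at 1 h and an ordinary one at 6 h. IKZF1 lay at the middle of the table at 6 h, and BCL11B among the genes that were higher on the authors' scale.

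**Figure D2:**
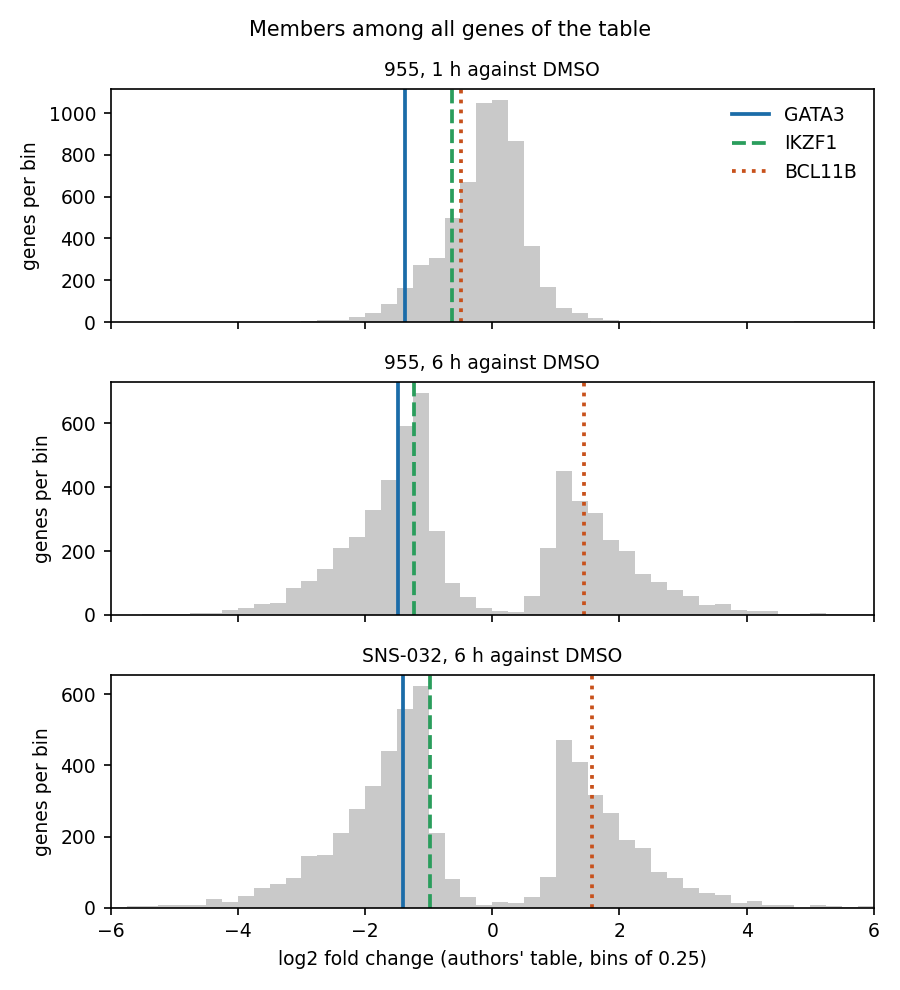
Grey bars count all 5759 listed genes by log2 fold change against DMSO (authors' scaling, bins of 0.25, axis shown from -6 to 6), and lines mark GATA3, IKZF1 and BCL11B. At 1 h GATA3 lies in the lower tail with 4.39% of genes below it, and at 6 h GATA3 and IKZF1 lie in the lower of the 2 groups of genes and BCL11B in the upper one, which moves down when mitochondrial mRNAs are set to 0.

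The direction of these values depends on the scale. The 13 mRNAs of the mitochondrial genome, which has its own RNA polymerase, had median log2 fold changes of 0.67 after 1 h of 955, 2.07 after 6 h and 2.35 with SNS-032. Setting these medians to 0 lowers every gene by the same amounts and changes the share of listed genes past the threshold at 6 h of 955 to 66.4% lower and 2.47% higher, at SNS-032 to 72.1% and 2.01%, and at 1 h to 30.7% and 0.278%. On that scale GATA3 was at -2.05, -3.56 and -3.75, and IKZF1 at -1.31, -3.30 and -3.33, for 955 at 1 h, 955 at 6 h and SNS-032. BCL11B was at -1.17, -0.62 and -0.77, with adjusted p-values of 3.1e-06, 0.00105 and 0.000123 (t distribution on the implied standard error, Benjamini-Hochberg over the listed genes). BCL11B was then lower than DMSO in each group, past the bound of 1 at 1 h only. The p-values take the shift as known, although the 13 mRNAs ranged from 1.90 to 2.34 after 6 h of 955. Whether mitochondrial mRNAs kept their level under treatment was not tested. On every scale used, BCL11B stood above GATA3 and IKZF1 in each comparison, since a common shift leaves their distances as they are, and the difference between genes was not tested.

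A second scale sets the median of the listed genes to 0. That median was -0.054 for 955 at 1 h, -1.03 for 955 at 6 h and -1.07 for SNS-032. GATA3 then stood at -1.33 at 1 h (adjusted p 0.0112), -0.46 after 6 h of 955 (0.225) and -0.33 with SNS-032 (0.376). IKZF1 stood at -0.58, -0.20 and 0.083, the last with the opposite sign to its value on the authors' scale, and BCL11B at -0.44, 2.47 and 2.64. Relative to the typical listed gene, GATA3 was lower at 1 h past the threshold and was not at 6 h.

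**Figure D3:**
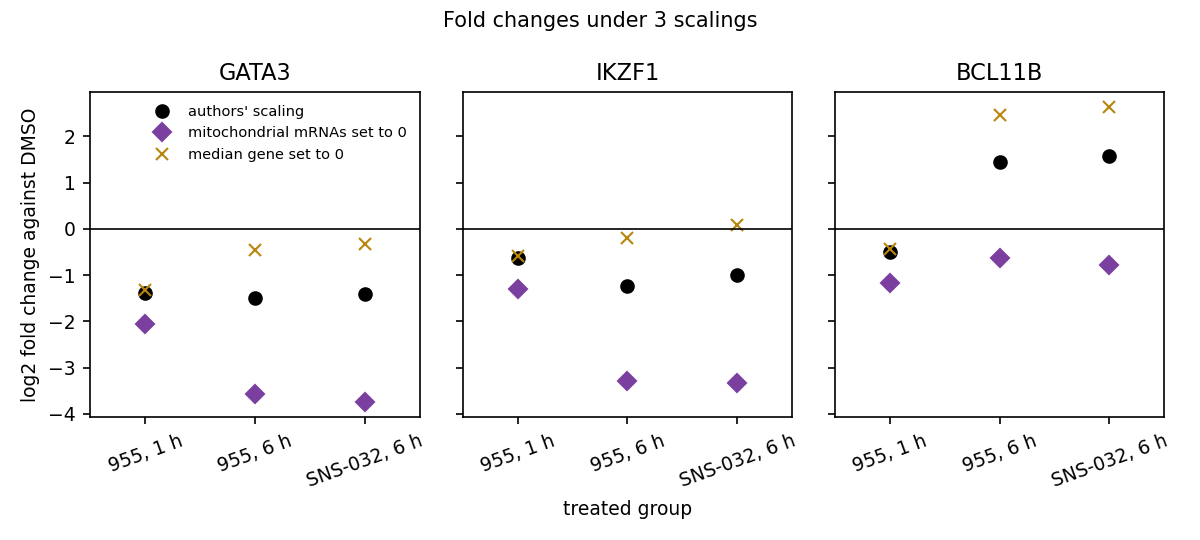
Each panel gives the log2 fold change of 1 gene against DMSO in the 3 treated groups, with the authors' scaling (circles), with the median of 13 mitochondrial mRNAs set to 0 (diamonds) and with the median listed gene set to 0 (crosses). GATA3 is below 0 on each scale, IKZF1 is at 0.083 with SNS-032 when the median gene is 0, and BCL11B at 6 h is above 1 on the authors' scale and below 0 on the mitochondrial one.

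The 2 times of 955 were compared through the difference of their values against the same DMSO samples. Without a vehicle group at 1 h, this difference holds time in culture as well as exposure to 955. BCL11B was higher at 6 h than at 1 h by 1.94 (standard error 0.15, 95% interval 1.62 to 2.27, adjusted p 1.24e-09), which is 3.84-fold, and by 0.55 on the mitochondrial scale (adjusted p 0.00339). It was the 1 member past the threshold in this contrast, in which 27% of the listed genes were higher and 35.6% lower at 6 h. IKZF1 was lower at 6 h by a log2 difference of -0.59 (standard error 0.13, -0.85 to -0.33, adjusted p 0.000199), within the bound of 1. GATA3 had a difference of -0.11 (standard error 0.32, -0.81 to 0.60, adjusted p 0.753). For GATA3 this interval allows a further fall as well as a recovery, so it does not show equal levels. With the mitochondrial mRNAs set to 0, the difference was -1.51 for GATA3 (adjusted p 0.00126) and -1.99 for IKZF1 (4.89e-13), both lower at 6 h.

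At 6 h the 95% intervals of the difference between 955 at 0.1 µM and SNS-032 at 1 µM included 0 for all 3 genes, and 0 of the 3 were past the threshold, beside 1.11% (64) of the listed genes. That number was 181 on the mitochondrial scale, 170 of them higher with 955, and 8 with the control treated as not shared. The log2 difference (955 minus SNS-032) was -0.085 for GATA3 (95% interval -0.79 to 0.62, adjusted p 0.939), -0.24 for IKZF1 (-0.50 to 0.02, adjusted p 0.399) and -0.12 for BCL11B (-0.45 to 0.20, adjusted p 0.792). All 3 point estimates were below 0 on the authors' scale and above 0 on the mitochondrial one, at 0.19, 0.035 and 0.15. The unadjusted p was 0.0729 for IKZF1, the smallest of the 3, so 0 of them were under 0.05 without adjustment as well. The intervals leave room for differences in either direction, and the doses differ, so these values do not show that the compounds act alike.

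**Figure D4:**
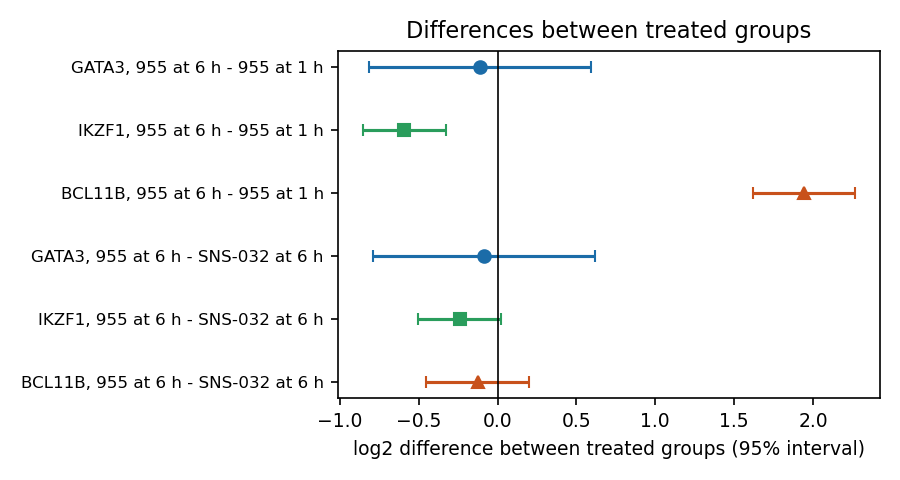
Points are log2 differences between treated groups for GATA3, IKZF1 and BCL11B on the authors' scale, with 95% intervals. The intervals of IKZF1 and BCL11B exclude 0 between 6 h and 1 h of 955 and those of all 3 genes include 0 between 955 and SNS-032 at 6 h.

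The distances between the 3 profiles, over the 3 log2 fold changes against DMSO, were 0.89 for GATA3 and IKZF1, 4.27 for GATA3 and BCL11B and 3.70 for IKZF1 and BCL11B. Since IKZF1 was the middle value of the 3 in each comparison, the median profile is that of IKZF1. The genes of the table nearest to it were SHLD1 (distance 0.035), which encodes a subunit of the shieldin complex of DNA repair, GTPBP10 (0.042) and CHST12 (0.046). The nearest gene to GATA3 was MTF1 (0.13), the metal-responsive transcription factor, with log2 fold changes of -1.26, -1.46 and -1.45 in the authors' deposited table. The nearest gene to BCL11B was VDR (0.15), the vitamin D receptor, with -0.64, 1.45 and 1.53 in the authors' deposited table, of which the last 2 would also be below 0 on the mitochondrial scale. Likeness here is Euclidean distance over 3 comparisons that share their control.

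Related gene lists were counted against the same threshold, and their counts stand beside shares of all listed genes of 7.71% lower and 0.729% higher at 1 h, 50.1% and 35.2% for 955 at 6 h, and 52.5% and 37.8% for SNS-032. On the mitochondrial scale the shares lower were 30.7% (1 h), 66.4% (955 at 6 h) and 72.1% (SNS-032). The shares higher on it were 0.278%, 2.47% and 2.01%. Of 23 paralogs of the 10 genes 6 had a row, and the numbers past the threshold as lower were 2 at 1 h, 5 after 6 h of 955 and 3 with SNS-032, with 0 higher. On the mitochondrial scale all 6 were lower in each comparison. Their median log2 fold changes were -0.68, -1.30 and -1.11, beside -0.054, -1.03 and -1.07 over all listed genes. The Ikaros relatives IKZF3 and IKZF4 fell in the authors' deposited table to -1.23 and -1.32 (955 at 6 h), near the -1.22 of IKZF1 and not far from the median of -1.03. With SNS-032 the authors' deposited table has them at -0.97 and -1.54, beside -0.99 for IKZF1. At 1 h it has them at -0.83 and -0.40, beside -0.63. BCL11A, the relative of BCL11B, fell in the authors' deposited table to -1.11 at 1 h and was at -0.48 by 6 h of 955, where BCL11B was at 1.45 (below 0 on the mitochondrial scale for both). On the mitochondrial scale BCL11A went the other way, from -1.78 at 1 h to -2.55 by 6 h of 955. ETS2, a relative of ETS1, fell in the authors' deposited table to -2.71 (955 at 6 h) and -2.88 (SNS-032).

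Partners and antagonists of the circuit had 9 of 26 genes listed. At 1 h 0 of them passed both parts of the threshold, while the authors' deposited table puts 3 (SIN3A, CREBBP and TLE3) at an FDR under 0.05 and 6 at an unadjusted p under 0.05. After 6 h of 955, 8 were lower and 1 higher, and with SNS-032 7 were lower and 1 higher (HDAC1, a histone deacetylase, which is below 0 on the mitochondrial scale). The mitochondrial scale gave 5 lower at 1 h and 9 lower for each compound at 6 h, with 0 higher. Among all listed genes that scale gave 30.7% lower at 1 h, and 66.4% (955) and 72.1% (SNS-032) at 6 h. In the authors' deposited table ID3, an inhibitor that sequesters E proteins such as TCF3 and TCF12, fell to -4.74 (955 at 6 h) and -3.72 (SNS-032), and ID1, of the same family, to -2.64 and -3.34. These were imprecise, with implied standard errors of 0.97 and 0.91 for ID3 and 0.75 and 0.78 for ID1. The median over the listed genes was 0.24 for each compound at 6 h. CBFB, the partner of RUNX1 on DNA, fell to -1.32 and -1.56, and the coactivator CREBBP to -1.82 and -1.92 in the authors' deposited table.

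Other T-lineage factors had 10 of 39 genes listed, of which 2 were lower at 1 h, 6 lower and 2 higher after 6 h of 955, and 3 lower and 2 higher with SNS-032. The higher ones were STAT5A and STAT5B (1.42 and 1.04 for 955 at 6 h in the authors' deposited table), both below 0 on the mitochondrial scale, which gave 5, 9 and 9 lower and 0 higher. Of genes described as targets of TAL1 or MYB, 14 of 22 were listed, with 2 lower at 1 h, 9 lower and 3 higher after 6 h of 955, and 8 lower and 4 higher with SNS-032. On the mitochondrial scale these targets counted 7 lower at 1 h, 11 after 6 h of 955 and 12 with SNS-032, with 0 higher. The shares of all listed genes lower on that scale were 30.7%, 66.4% and 72.1%. Among these targets the authors' deposited table has CCNB1 (cyclin B1) at -3.97, PIK3R1 at -3.13 and MYC at -3.07 as the deepest falls for 955 at 6 h, and HES6 at 1.70 as the highest rise, though it was -0.37 on the mitochondrial scale. ARID5B, described as a target of TAL1 that itself raises MYC, fell in the authors' deposited table to -1.34 at 1 h (FDR 0.0265) and was at -0.15 by 6 h of 955 and 0.34 with SNS-032. On the mitochondrial scale ARID5B was at -2.01 at 1 h, -2.22 by 6 h of 955 and -2.00 with SNS-032, with no return towards DMSO. Of thymocyte stage genes, 10 of 17 were listed, with 1 lower at 1 h (RAG2, of the V(D)J recombinase), 5 lower and 3 higher after 6 h of 955, and 6 lower and 4 higher with SNS-032. The mitochondrial scale gave 2 of them lower at 1 h and 7 for each compound at 6 h, with 0 higher. For 955 at 6 h the authors' deposited table has CD4 as the highest of them, at 2.26, and it was at 0.19 on the mitochondrial scale.

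**Figure D5:**
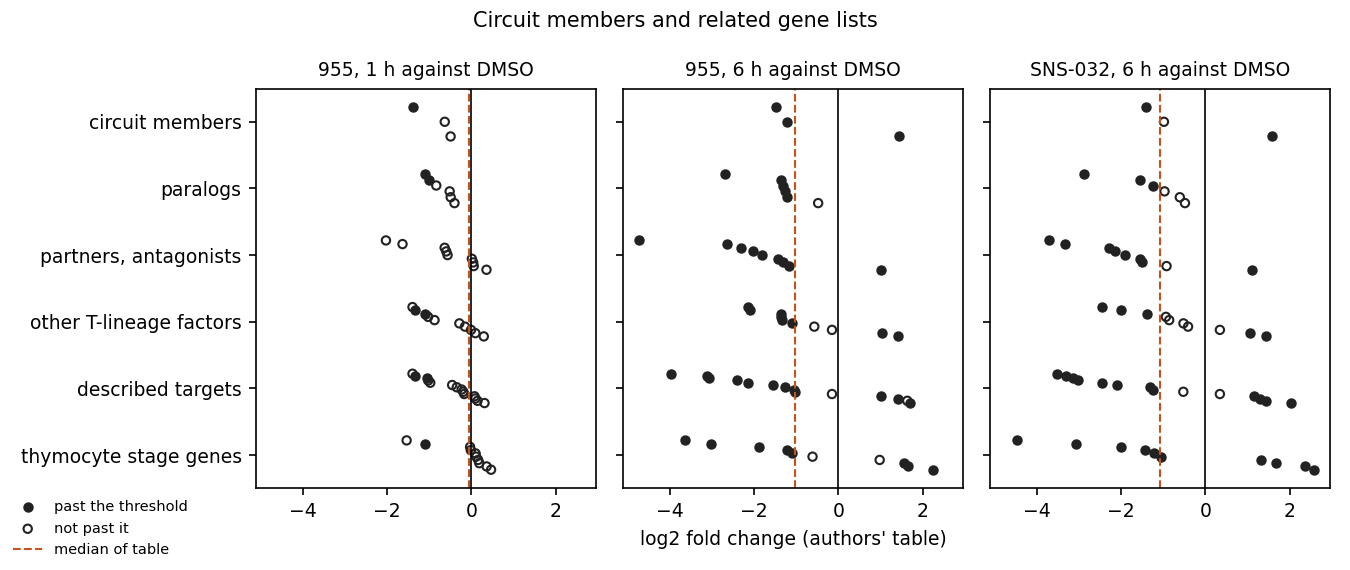
Each point is 1 listed gene of the circuit or of a related gene list, placed by its log2 fold change against DMSO (authors' scaling), filled where it passed the threshold and open where it did not, with the median of all 5759 listed genes as a dashed line. The circuit's 3 genes span -1.49 to 1.45 after 6 h of 955. The 6 paralogs all lie below 0, as do 3141 (955 at 1 h), 3395 (955 at 6 h) and 3388 (SNS-032) of the 5759 listed genes. The points above 1 after 6 h of 955, BCL11B among them, are below 0 on the mitochondrial scale with the exception of CD4.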

How the data were processed

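The values analysed are a table of the authors' comparisons, with no values per sample. Per the file headers, each of the 3 blocks (a treated group against DMSO) holds log fold changes, average log CPM, F statistics, p-values and FDR. The authors' log fold changes and average levels are taken to be log2, since 1.00058 is the smallest value among the largest fold changes of each gene. F is a score from the authors' model, and each p-value is the one the authors deposited. The submitters' processing notes name hg38 and DESeq2, with no role. The table's columns are not those that DESeq2 writes, so the tool behind it, like the aligner, counter, annotation and filters, is not given in the sources used here.

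IDs were matched to the RefSeq table of GRCh38.p14 (5727 of 5759). Implied standard errors are the size of the log2 fold change divided by the root of F. Denominator degrees of freedom were solved from F and p. Intervals are 95% t intervals on these. Differences between treated groups used the root mean square of both standard errors and Benjamini-Hochberg adjustment over all 5759 genes. The same adjustment was used after shifting the scale, with the shift taken as known. The difference between 955 and SNS-032 was also run on simulated data, with log2 changes of 2 in 200 genes, of which 88% were recovered. Those data followed the model that the test assumes, so the run checks the calculation and not the model. It covered neither the 1 h contrast nor the shifted scales. Values per kilobase used the exon union of GENCODE 29, and Python 3.11.15 with SciPy 1.17.1 was used.

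The members and lists (paralogs, partners and antagonists, other T-lineage factors, described targets, thymocyte stage genes, and T cell, B cell, myeloid and erythroid markers) were chosen with earlier results of these data known. The B cell list is not reported here in full. The rule for naming genes was all members listed, up to 3 rises and 3 falls past the threshold per list and comparison, every gene of a list with 5 or fewer listed, and the nearest profiles. IKZF3, CBFB, CREBBP, TLE3, CDK6 and MAT2A fall outside it and were chosen after their values were seen. A count model was foreseen in case of values per sample, and the authors' own FDR was used in its place.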

Additional observations from a re-analysis of the deposited data

Results flagged for a closer look

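The values of 955 at 1 h and at 6 h differed in the test of the difference itself for BCL11B, by 1.94 on the log2 scale (standard error 0.15, adjusted p 1.24e-09), and for IKZF1, by -0.59 (standard error 0.13, adjusted p 0.000199). No vehicle group was collected at 1 h, so these differences hold time in culture as well as exposure to 955. They were also common in the table. With the bound of 1, 27% of the listed genes were higher and 35.6% lower at 6 h than at 1 h. The share without the bound was not counted, so nothing is read from the flagging of these members. BCL11B went from -0.49 to 1.45 in the authors' deposited table, and IKZF1 from -0.63 to -1.22. On the mitochondrial scale BCL11B went from -1.17 to -0.62, a difference of 0.55 (adjusted p 0.00339) within the bound of 1, and the difference for IKZF1 was -1.99 (4.89e-13).

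The effects of 955 and SNS-032 at 6 h differed in this test for 2 of the 14 listed targets of TAL1 or MYB, both within the bound of 1. The share of all listed genes that differ without the bound was not counted, so nothing is read from this number. With the bound, 0 of the 14 targets passed, beside 1.11% (64) of the listed genes. CDK6, a cyclin-dependent kinase gene, was lower with 955 by a log2 difference of -0.51 (standard error 0.11, adjusted p 0.0122), which was -0.23 with an adjusted p of 0.17 on the mitochondrial scale. MAT2A, the gene of a methionine adenosyltransferase, was higher with 955 by 0.55 (standard error 0.13, adjusted p 0.0188), and by 0.82 (0.000273) on the mitochondrial scale. With the control treated as not shared, the adjusted p was 0.371 for CDK6 and 0.423 for MAT2A.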

How the results depend on the processing

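Of 51 alternatives, 32 left a value's direction and side of the threshold as they were, or kept a count within 1.5 times. A count so kept could hold other genes, as with SNS-032 on the mitochondrial scale, where IKZF1 (lower) took the place of BCL11B (higher). The number of members called at 1 h was 1, and it was 2 with no bound on the fold change (GATA3 and IKZF1), 0 at an FDR under 0.01 and 3 with the mitochondrial mRNAs set to 0. All of these calls were lower, and beside them stood 7.71%, 11.9%, 5.64% and 30.7% of all listed genes lower. Between 6 h and 1 h of 955, that scale gave 2 members (GATA3 and IKZF1, lower at 6 h) in place of 1 (BCL11B, higher), beside 3344 of 5759 genes lower and 206 higher in place of 2053 and 1556. The counts at 6 h against DMSO stayed within 1.5 times, although the mitochondrial scale gave 2 lower and 0 higher for each compound. That scale put 66.4% (955) and 72.1% (SNS-032) of all listed genes lower. Signs turned under mitochondrial scaling for BCL11B with 955 at 6 h (-0.62) and SNS-032 (-0.77), and for the differences between the compounds of GATA3 (0.19), IKZF1 (0.035) and BCL11B (0.15). The sign of IKZF1 with SNS-032 turned to 0.083 with the median listed gene at 0. These follow from the shift, which moves all genes equally. No paired analysis was possible because the table holds no values per sample, and leaving out replicates could not be run for the same reason. Depth is unknown, so precision is known only through the implied standard errors.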

Other observations

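Of 16 T cell markers, 7 had a row, and 0 passed both parts of the threshold at 1 h, although the authors' deposited table puts 2 of them at an FDR under 0.05 and 4 at an unadjusted p under 0.05. After 6 h of 955, 3 were lower and 3 higher, and the same numbers held with SNS-032, beside 50.1% lower and 35.2% higher (955) and 52.5% and 37.8% (SNS-032) of all listed genes. This even split holds on the authors' scale only, since the mitochondrial scale gave 2 lower at 1 h, 4 for 955 at 6 h and 5 for SNS-032, with 0 higher. Beside them stood 30.7%, 66.4% and 72.1% of all listed genes lower on that scale. CD2, the gene of an adhesion receptor, was lowest in the authors' deposited table, at -3.17 (955) and -3.35 (SNS-032), and CD7 was highest, at 1.59 and 1.90, though both CD7 values were below 0 (-0.48 and -0.45) on the mitochondrial scale.

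CD79A, a B cell marker, was at 0.97 (955 at 6 h) and 1.10 (SNS-032) in the authors' deposited table, both below 0 on the mitochondrial scale. EPOR, the erythropoietin receptor gene and the 1 listed erythroid marker of 8, fell in the authors' deposited table to -1.48 (FDR 0.0174) at 1 h, -2.30 by 6 h of 955 and -2.45 with SNS-032. The 9 myeloid markers are not analysed here.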
